A study of Mus musculus with 12 samples.

Results

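Cytosolic ribosomal protein genes were followed in mouse B cells of wild-type and knockout status for Kdm1a, the gene of the histone demethylase LSD1. Members were all rows whose Entrez ID maps to a symbol made of Rpl or Rps and a number, together with Rplp0, Rplp1, Rplp2 and Rpsa. S6 kinase genes and symbols of named pseudogenes were left out. The rule took 86 of the 9842 genes listed. No measured value entered it. Of the 86, 77 encode core proteins of the cytosolic ribosome: 43 of the large subunit, 31 of the small subunit with Rpsa among them, and the 3 stalk proteins. The other 9 carry similar names: the paralogs Rpl7l1, Rpl22l1, Rpl36al and Rps27l, the copy Rpl32l, the retrogenes Rpl37rt and Rps23rg1, the transcribed pseudogene Rps4l, and Rps19bp1, which encodes a protein that binds RPS19 and not a ribosomal protein. The reference gene table holds 100 genes that fit the rule. The 14 that were not listed include the paralogs Rpl3l, Rpl10l and Rpl39l. No gene in the table was under 1 FPKM in more than 9 libraries, so the 86 are the members above such a level.

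The series holds 12 libraries of cells from female C57BL/6J mice, 3 for each of 4 groups. TrB_WT and TrB_KO are unstimulated splenic transitional B cells, gated as CD93+ B220+ cells without Thy1.1, F4/80 or CD11b, with wild-type and knockout LSD1 status respectively. eMZB_WT and eMZB_KO are marginal zone B cells derived ex vivo by culture for 3 days with BAFF, a B cell survival factor, and DL1, a Notch ligand, gated as CD1d+ CD21+ B220+ with the same 3 exclusions. All 4 groups share strain, sex and the amount of input, 2000 sorted cells per library. The sources used here do not state how LSD1 was deleted or what the wild-type cells carry in its place. Nor do the labels say whether replicates are separate animals, so p-values measure spread among libraries that could be technical replicates. Cell type, culture and sorting gate change together between TrB and eMZB, and their parts cannot be told apart.

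A ribosome pairs a small subunit, which reads the messenger RNA, with a large subunit, which joins the amino acids. Apart from the stalk proteins of Rplp1 and Rplp2, each core protein is present in about equal number in a finished ribosome. The messenger RNAs of core proteins are among the most abundant in dividing cells. They start with a short run of pyrimidines, the 5′ terminal oligopyrimidine (TOP) tract, through which mTOR signalling and the RNA-binding protein LARP1 control their translation. B cells enlarge and make more ribosomes when they are activated or grow in culture.

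Promoters of the members that rose most, of the one that changed least among the core genes, and of 4 that carry a pyrimidine run at the start are shown here because the core genes moved together. Of the 86 members, 65 have a promoter in the RefSeq table of build GRCm38.p6 (mm10), 57 of them core genes. Each line gives 60 bases before the annotated start and 25 from it on, 5′ to 3′ on the gene's strand. Where a gene had several promoters, one with CTTTCC near the start was taken first. In the counts below, a gene matched if any of its promoters did. The starts used for Rps2 and Rpl38 lie inside the bounds of the gene. Capitals mark CTTTCC on the gene's strand, a TOP-like run, and CCGGAAG on either strand, the core of sites for ETS factors. The regions are chr8:123102290-123102374 (+) for Rpl13, chr17:24720003-24720087 (+) for Rps2, chr9:120127706-120127790 (+) for Rpsa, chr3:86142644-86142728 (-) for Rps3a1, chr7:4792905-4792989 (+) for Rpl28, chr11:114668520-114668604 (+) for Rpl38, chr3:90213624-90213708 (-) for Rps27 and chr16:33056422-33056506 (+) for Rpl35a.
Rpl13: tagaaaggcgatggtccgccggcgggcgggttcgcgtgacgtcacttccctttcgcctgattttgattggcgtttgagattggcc
Rps2: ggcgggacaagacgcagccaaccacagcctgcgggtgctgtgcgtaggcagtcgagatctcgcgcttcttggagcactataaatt
Rpsa: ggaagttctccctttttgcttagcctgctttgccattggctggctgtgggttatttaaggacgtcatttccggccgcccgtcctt
Rps3a1: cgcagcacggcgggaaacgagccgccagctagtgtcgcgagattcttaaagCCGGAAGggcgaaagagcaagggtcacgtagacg
Rpl28: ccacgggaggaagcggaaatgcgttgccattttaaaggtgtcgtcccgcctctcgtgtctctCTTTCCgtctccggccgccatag
Rpl38: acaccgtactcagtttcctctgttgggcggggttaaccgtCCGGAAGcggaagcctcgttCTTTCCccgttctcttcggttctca
Rps27: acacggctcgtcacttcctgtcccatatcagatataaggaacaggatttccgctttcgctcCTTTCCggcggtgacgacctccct
Rpl35a: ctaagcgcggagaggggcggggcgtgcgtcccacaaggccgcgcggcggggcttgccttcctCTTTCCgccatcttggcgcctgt

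CTTTCC began within 10 bases of an annotated start, on the gene's strand, in 9 of the 57 core genes (15.8%). It did so in 1.34% of 7766 other listed genes and in 1.30% of all 27025 genes in the table. Within 50 bases on either side of the start it was found in 18 of 57 core genes (31.6%) and in 5.32% of the other listed genes. Over the whole 300 bases and both strands, CCGGAAG was found in 24 core genes (42.1%), in 23.2% of other listed genes and in 9.93% of all genes. The letters AAGATGG, the core of sites for YY1, were found in 9 core genes (15.8%) and 9.21% of other listed genes, TATAAA in 6 (10.5%) and 9.12%, and CACGTG, an E-box, in 6 (10.5%) and 12.3%. Annotated starts can lie some bases away from those used in B cells, so a match describes these windows and is not a measured site. Between the wild-type groups the median log2 change was 0.59 in the 18 with CTTTCC within 50 bases of the start and 0.67 in the 39 without it, and 0.63 in the 24 with CCGGAAG and 0.58 in the 33 without it.

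Read totals recovered from the values ran from 7.24 to 19.35 M reads per library (M, mega), and members held 5 to 6757 reads per gene and library, with a median of 960.5 for core genes. Kdm1a was measured at 2.53 to 3.35 scaled FPKM in the 6 knockout libraries. In the wild-type libraries it was 8.54, 7.93 and 3.47 in TrB and 7.53, 8.63 and 4.68 in eMZB, so the libraries labelled TrB_WT replicate 3 and eMZB_WT replicate 3 lay nearer to the knockouts than to their own group. TrB_KO replicate 3 also stood apart: listed genes took 61.6% of its reads, against 16.7 to 20.9% in the other TrB libraries and 27.8 to 41.7% in eMZB. Of the markers of the sorted cells, all 6 B cell genes, 4 of 5 transitional genes (Ighm is not listed) and all 7 marginal zone genes were listed, and the summed marginal zone level was 166 to 199 in TrB libraries and 365 to 410 in eMZB libraries. The B cell sum was 1783 to 2350 in TrB and 1074 to 1289 in eMZB, and the transitional sum 390.1 to 515 and 135 to 163; the part of these differences in the results was not tested. The 6 plasma cell genes summed to 96.3 to 167 in TrB and 146 to 176 in eMZB. Mzb1 was the largest part, at 59.1 to 85.1 in TrB and 108 to 125 in eMZB. Jchain ran from 0.405 to 59.2 in TrB and from 0.658 to 14.5 in eMZB. Plac8 was the largest part of the marginal zone sum, at 117 to 151 in TrB and 196 to 242 in eMZB. Cd1d1, at 19.8 to 24.8 and 22.5 to 31.0, was the only marginal zone gene that overlapped. None of the marker genes of T cells, neutrophils, NK cells, platelets or stromal cells was listed. Of 7 macrophage genes 3 were listed and summed to 2.48 to 6.55, of 5 dendritic cell genes 1 was listed at 0.402 to 5.67 with its highest values in eMZB_KO, and of 5 erythroid genes 1 at 0.551 to 2.60; the part of these low levels in the results was not tested.

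Levels of core genes, in FPKM divided by a scaling factor per library, had a median of 91.7 over the 77 genes. FPKM is per gene length, so genes can be set side by side. Of the 100 most abundant listed genes, 32 were members. Among the highest means over the 12 libraries were those of Rpl32 (278) and Rpl13 (228), both large subunit genes. The lowest were those of Rpl22 (11.2), Rps15a (11.2) and Rps24 (16.2). Core proteins, most of them present in about equal number in the ribosome, thus had messenger RNA levels spread over a 24.9-fold range in this table. The recovered gene lengths of Rps15a (5134 bases) and Rps24 (4384 bases) were the longest of the class, where the median was 775 bases, and a length longer than the main messenger RNA lowers an FPKM. Across the 77 core genes the level was lower for longer genes (Spearman's rho -0.44) and, more weakly, for genes with more named pseudogenes in the reference (rho -0.23). These are descriptions across genes that share libraries. Reads from near-identical copies may have been lost or split, since 301 named pseudogenes of the class are in the reference and how the authors treated reads with several matches is not given in the sources used here. Genes with many named copies, such as Rpl31 (24), Rps12 (23) and Rpl21 (15), are therefore uncertain in level.

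The order of the core genes was nearly the same in both wild-type cell types (rho 0.98). Among the listed genes, the class as a whole took a larger part of the messenger RNA in eMZB. Members made up 5.59, 6.03 and 6.10% of the summed FPKM in the 3 TrB_WT libraries and 9.37, 8.71 and 8.60% in eMZB_WT. In knockout cells the shares were 6.49, 6.28 and 4.15% in TrB and 10.3, 9.46 and 9.79% in eMZB. All 6 eMZB libraries lay above all 6 TrB libraries, and TrB_KO replicate 3 was the lowest of the 12. A share of the recovered reads of listed genes does not divide by length. On it the members' range was 1.70 to 1.91% for TrB_WT and 1.23 to 2.02% for TrB_KO. For eMZB_WT it was 2.74 to 3.02%, and for eMZB_KO 3.03 to 3.33%. The order of the groups' ranges was the same on both scales. Listed genes held 16.7 to 61.6% of a library's reads, so neither scale is a share of the whole library. TrB_KO replicate 3 had 107697 member reads of 14.26 M in all. Replicates 1 and 2 had 41518 of 11.95 M and 69332 of 16.89 M. The low place of replicate 3 thus holds within the listed genes only. In bulk libraries, fewer cells of a type and less RNA per cell cannot be told apart, and the share says nothing of the amount of RNA in a cell.

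**Figure D1:**
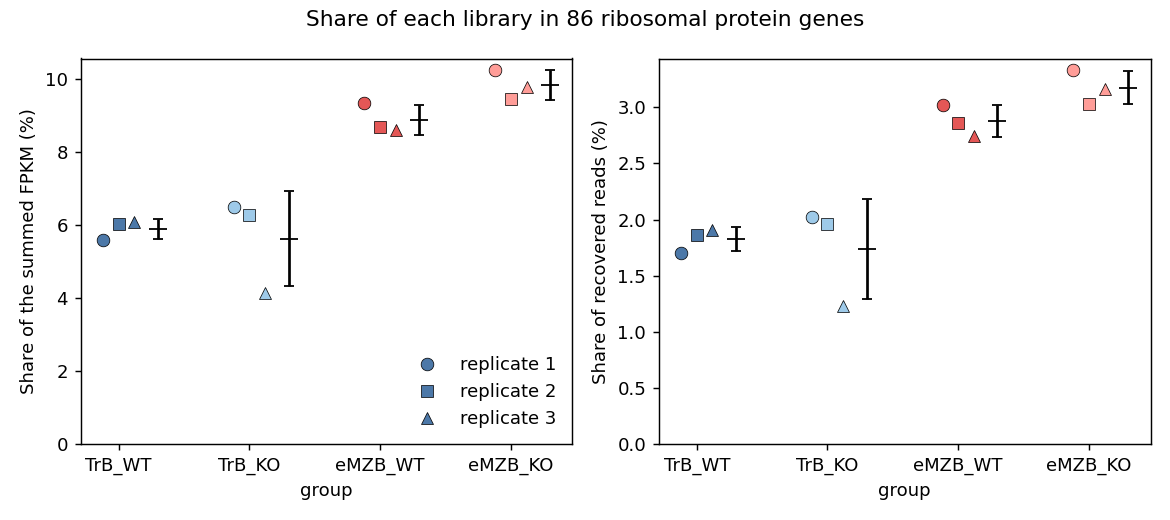
Share of the 86 ribosomal protein genes within the listed genes of each library, for the 4 groups. Shares are percent of summed FPKM (left) and of recovered reads (right) of the listed genes. Symbols are libraries by replicate number, and bars the mean ± SD of 3 libraries. All eMZB libraries are above all TrB libraries, and TrB_KO replicate 3 (4.15% and 1.23%) is below the other TrB libraries. Listed genes took 61.6% of the reads of that library, more than in any other.

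Between wild-type cells, ribosomal protein genes were higher in eMZB than in TrB across both subunits and the stalk. Of 86 members, 69 rose and 0 fell, against 14.6% of all listed genes called higher and 12.7% called lower (limma, Benjamini-Hochberg adjusted p under 0.05 over 9842 genes). By role, 36 of 43 large subunit genes, 27 of 31 small subunit genes, 3 of 3 stalk genes and 3 of the 9 others rose. The median log2 change was 0.58 over the members, a 1.49-fold rise, and -0.00 over all listed genes. Changes of the core genes ran from 0.25 to 1.06, and their rank correlation was 0.06 with length and 0.07 with level. No overlap between the 3 TrB_WT and the 3 eMZB_WT libraries was seen for 81 members, all higher in eMZB_WT, against 21.8% of listed genes.

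**Figure D2:**
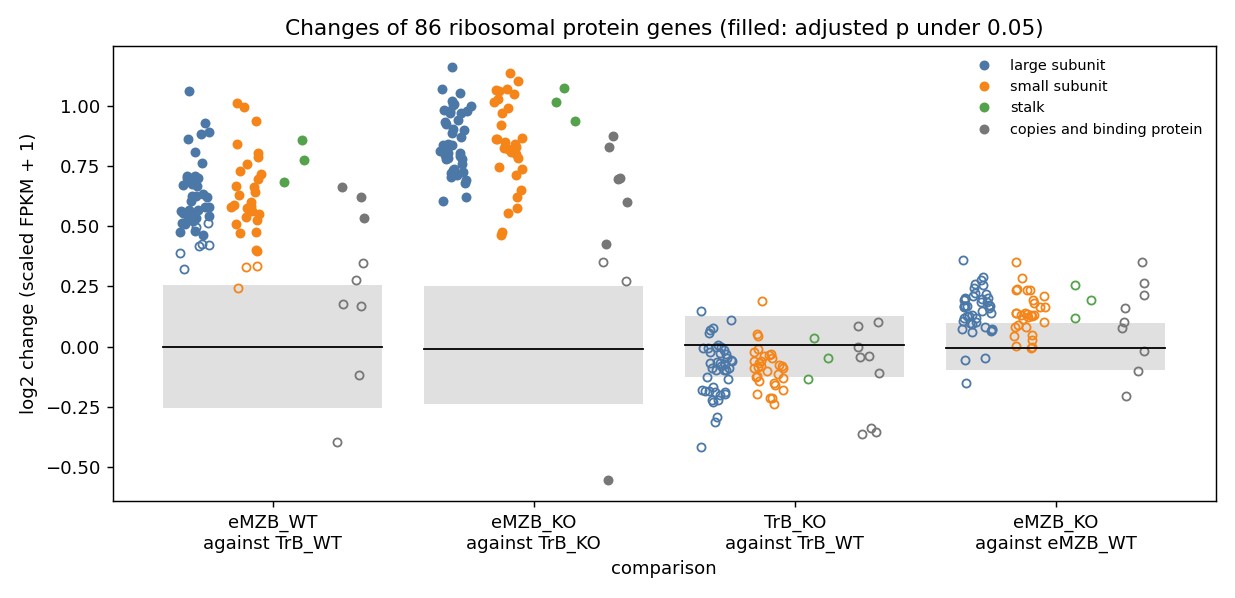
Log2 change of each of the 86 genes in 4 comparisons, by class; filled points passed an adjusted p under 0.05, and grey bands with a line give the quartiles and median of all 9842 genes. Core genes lie above the band between cell types (medians 0.59 in wild type and 0.84 in knockout), except Rps3a1, which lies within it in wild type. No point is filled in either comparison of LSD1 status.

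Among the largest rises were those of Rpl13, Rps2, Rpsa and Rpl14. Rpl13, of the large subunit, was measured at 148, 151 and 128 in TrB_WT and 304, 308 and 281 in eMZB_WT. Its log2 change was 1.06 (SE 0.13, adjusted p 5.86e-05). Rps2, near the messenger RNA entry of the small subunit, was at 48.5, 54.6 and 47.3 in TrB_WT and at 106, 101 and 98.4 in eMZB_WT. The lowest eMZB_WT library of each gene was well above its highest TrB_WT library, and the log2 change of Rps2 was 1.01 (SE 0.09, adjusted p 4.30e-06). Rpsa, whose product is a small subunit protein also known as a laminin receptor, was at 52.3, 55.6 and 50.7 against 107, 114 and 97.8, a log2 change of 0.99 (SE 0.12, adjusted p 9.58e-05). Rpl14, of the large subunit, rose from 52.8 ± 6.2 to 101 ± 2.5 (mean ± SD, n = 3 libraries), a log2 change of 0.93. All 4 were called in every one of the 12 fits that left out 1 library.

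The stalk, through which elongation factors reach the ribosome, is built from the products of Rplp0, Rplp1 and Rplp2. Rplp0 was at 90.5, 103 and 107 in TrB_WT and at 188, 181 and 178 in eMZB_WT, a log2 change of 0.86 (SE 0.13, adjusted p 0.000324). Rplp1 was at 88.3, 91.2 and 99.3 against 162, 142 and 145 (0.68, SE 0.20, adjusted p 0.0240). Rplp2 was at 73.3, 80.8 and 74.2 against 138, 127 and 127 (0.77, SE 0.13, adjusted p 0.000957). No stalk gene overlapped between the 2 wild-type groups.

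Several members have known roles beyond the count of ribosomes. Rpl5 and Rpl11, whose proteins bind and block MDM2 when assembly is disturbed, rose from 23.4 ± 1.7 to 38.9 ± 0.94 and from 65.5 ± 5.7 to 96.7 ± 7.1. Their log2 changes were 0.71 (adjusted p 0.000986) and 0.56 (adjusted p 0.0179). Rps6, the target of S6 kinase, rose from 54.2 ± 5.2 to 89.5 ± 3.2, and Rps27a, which is made as a fusion with ubiquitin, from 72.7 ± 3.5 to 111 ± 1.6. Rpl38, known for translation of Hox messenger RNAs, rose from 52.8 ± 5.1 to 82.2 ± 2.5, and Rpl13a, known for silencing of inflammatory messenger RNAs, from 41.7 ± 1.9 to 64.9 ± 5.3. For each of these 6 genes the lowest eMZB_WT library was above the highest TrB_WT library. Rps19, often mutated in Diamond-Blackfan anaemia, was at 83.7, 88.1 and 94.3 against 124, 124 and 105, a log2 change of 0.40 that did not pass the test (adjusted p 0.126).

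Among core genes the smallest differences were those of Rps3a1, Rpl35a and Rps25. Rps3a1, of the small subunit, was at 141, 150 and 167 in TrB_WT and 191, 182 and 169 in eMZB_WT (log2 0.25, adjusted p 0.137). Rpl35a was at 55.3 ± 7.0 against 69.1 ± 5.5 (log2 0.32, adjusted p 0.232), and Rps25 at 110 ± 6.1 against 140 ± 20 (log2 0.33, adjusted p 0.177), with eMZB_WT replicate 3 at 116 below the highest TrB_WT library at 117. The other core genes that did not pass were Rpl7a, Rpl12, Rpl28, Rpl31, Rpl34, Rpl41, Rps19 and Rps29, all with log2 changes above 0.3. All 77 core genes were thus above 0 in their change, and 66 of them rose.

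How many members were called rested on single libraries more than their direction did. Leaving out TrB_WT replicate 1 left 44 of the 69 calls, and leaving out eMZB_WT replicate 1 left 42 of them. Without TrB_KO replicate 3 all 69 held, and 81 members were called in total. That library enters this contrast only through the pooled spread and the scaling factors. Of the 69 genes, 41 were called in all 12 of these fits. With both wild-type libraries of low Kdm1a left out, 46 were called higher (10.7% of listed genes) and the median was 0.63; with TrB_KO replicate 3 left out as well, 80 were called, all higher (15.6% of listed genes). On FPKM as deposited, where all genes had a median change of 0.67, the members' median was 1.44 and 80 were called higher, against 18.1% of all genes. Over all genes that scale gave 1779 calls higher and 117 lower, where the scaled values gave 1440 and 1253.

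**Figure D3:**
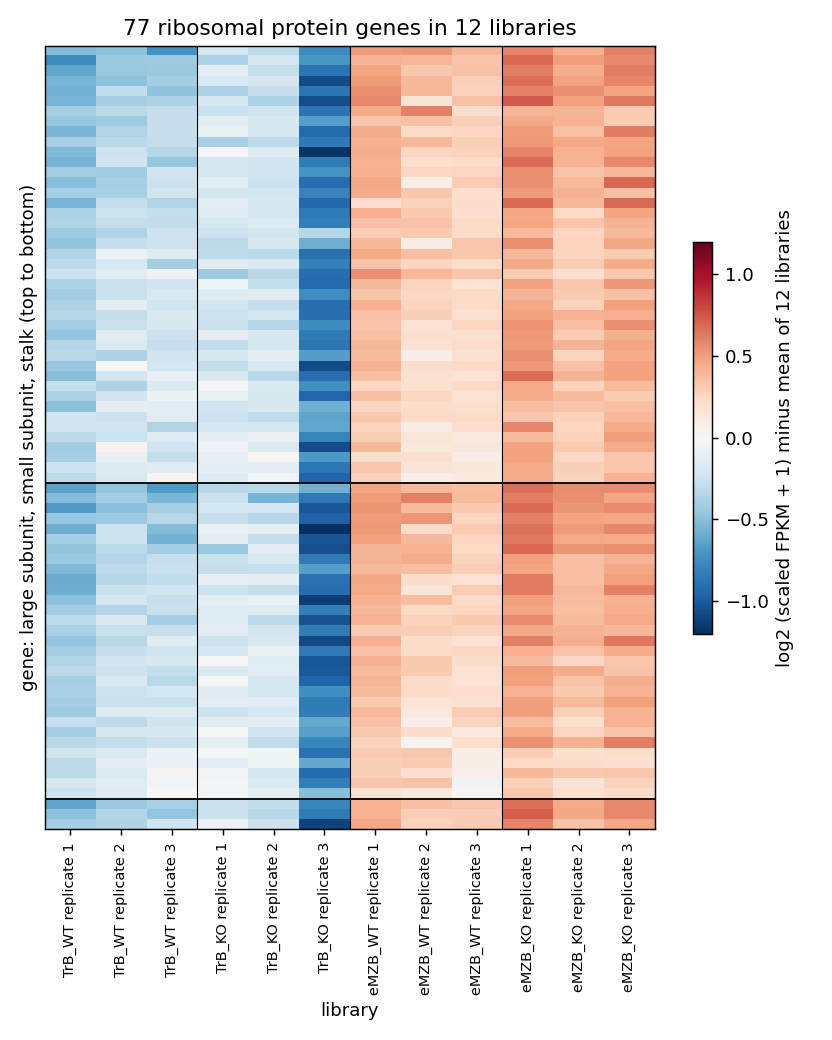
The 77 core genes (rows, large subunit, small subunit and stalk from top to bottom) in 12 libraries (columns), as log2 of scaled FPKM plus 1 minus the gene's mean over the libraries. The 6 eMZB columns are high and the 6 TrB columns low in nearly every row, and TrB_KO replicate 3 is the darkest blue column, the lowest library for 79 of all 86 members.

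The same comparison in knockout cells gave more calls. Of 86 members 83 rose, all 77 core genes among them, and 1 fell, against 14.2% and 13.2% of all listed genes. The median log2 change was 0.83, a 1.78-fold rise, and -0.01 over all listed genes. The largest rises were those of Rpl36a, from 38.5 ± 12 to 84.7 ± 7.2 (log2 1.16, SE 0.18, adjusted p 0.000609), and Rps12. Rps12, of the small subunit, was at 15.6, 19.7 and 9.85 in TrB_KO and 35.3, 31.6 and 32.3 in eMZB_KO (log2 1.13, SE 0.17, adjusted p 0.000488). Rps4l was the gene that fell, from 2.38, 2.79 and 1.95 to 1.47, 1.05 and 1.36 (log2 -0.55, SE 0.19, adjusted p 0.0437). Its call held for 5 of the 12 libraries when each was left out in turn, and was lost by voom, on deposited FPKM and with the replicate number as a block, which left 83 calls. Rps19bp1 and Rpl7l1 did not pass, at log2 0.35 and 0.27. Without TrB_KO replicate 3 the median was 0.63 and 84 members rose (14.4% of listed genes); on deposited FPKM 28 were called higher (3.93% of listed genes) and the median was 1.14 against 0.23 for all genes.

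Over all 12 libraries, 79 members had every eMZB library above every TrB library, against 12% of listed genes. The 7 others were Rps25, Rpl22l1, Rpl7l1, Rpl32l, Rpl37rt, Rps19bp1 and Rps4l. Rps25 was thus the single core gene with any overlap.

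No member passed the test for LSD1 loss in transitional cells, where 0.498% of all listed genes did. By limma, 3 members had an unadjusted p under 0.05, all lower in TrB_KO (3.49%, against 3.99% of listed genes), and by voom on recovered reads 0 passed and 2 had an unadjusted p under 0.05, both lower (9.37% of listed genes). The largest falls were those of Rpl21 (log2 -0.42, SE 0.13, adjusted p 0.280), Rps19bp1 (-0.36, adjusted p 0.397) and Rpl32l (-0.35, adjusted p 0.599). Rpl21, of the large subunit, was at 25.1, 27.6 and 29.2 in TrB_WT and 22.1, 23.8 and 15.5 in TrB_KO, so all 3 knockout libraries were below the wild type; it was the single member without overlap in that direction, which 4.37% of listed genes showed. The largest positive values were 0.19 for Rps2, 0.15 for Rpl13 and 0.11 for Rpl14.

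On scaled values the direction of the class in TrB_KO turned on replicate 3. It also differed with the scale. On FPKM as deposited, with replicate 3 kept, the members' median was 0.53, against 0.52 over all listed genes. The values that follow are on the scaled FPKM. With it, 74 of 86 members had a negative log2 change (48.5% of listed genes), the median being -0.08; without it the median was 0.13 and 21 members had an unadjusted p under 0.05 in the higher direction, where 5.95% of listed genes did, and 0 passed adjustment (0.335%). TrB_KO replicate 3 was the lowest of the 12 libraries for 79 members (91.9%) against 17.7% of listed genes. Rpl32 shows the pattern: 176, 185 and 196 in TrB_WT, then 229, 226 and 123 in TrB_KO. Replicates 1 and 2 lay above all wild-type libraries and replicate 3 below them. The same held for Rplp0, at 117, 115 and 80.8. For 39 members (45.3%) both TrB_KO replicates 1 and 2 were above all TrB_WT libraries, against 11.3% of listed genes, and for 2 members both were below (8.77% of listed genes). When the 3 doubted libraries were all left out, the median was 0.15 and 1 member passed, the paralog Rpl22l1, higher in TrB_KO (log2 0.45, SE 0.08, limma adjusted p 0.0327), where 0.610% of listed genes were called higher. In the 23 other fits its adjusted p was 0.252 to 0.997.

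The shortfall of scaled values in TrB_KO replicate 3 differed with gene length. Relative to the mean of replicates 1 and 2, the 30 members shorter than 600 bases had a median ratio of 0.574, the 30 of 600 to 1000 bases 0.633 and the 17 of 1000 to 2000 bases 0.674. Other listed genes of the same length classes were at 0.696, 0.753 and 0.959. The 6 members of 2000 to 4000 bases were at 0.721 and the 3 longer ones (Rps24, Rps15a and Rps3) at 0.615, where other genes were at 1.05 and 1.07. The members' median was thus below that of other genes in each length class, and it was higher in each longer class up to 4000 bases but not beyond. Rps21 (0.436), Rpl39 (0.462) and Rps28 (0.483) had the lowest ratios among core genes and Rpl4 (0.927) and Rps2 (0.843) the highest. Across the 77 core genes the ratio went up with length (rho 0.44), a description over genes of 1 library. What part length, RNA quality or the make-up of this library has in the values of TrB_KO was not tested.

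**Figure D4:**
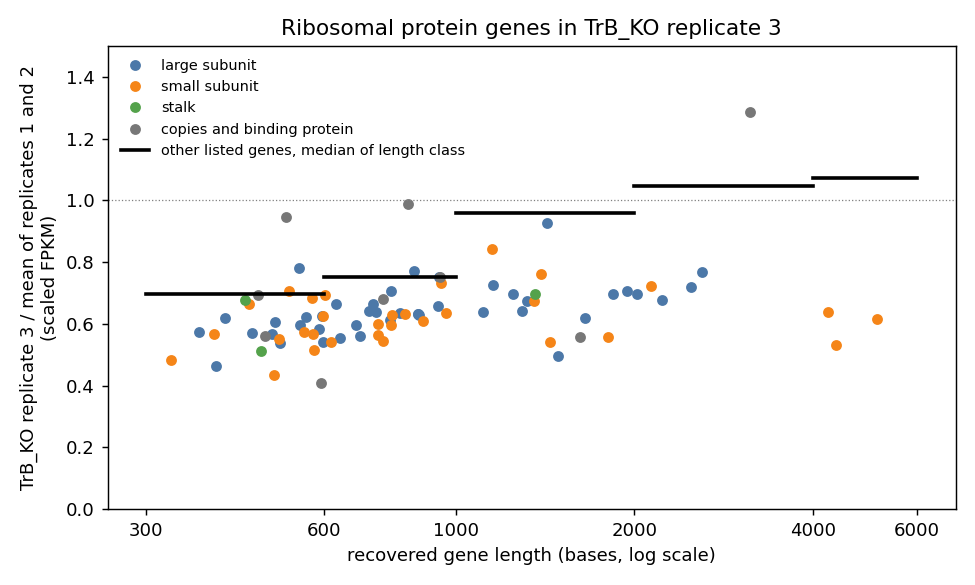
Ratio of scaled FPKM in TrB_KO replicate 3 to the mean of TrB_KO replicates 1 and 2 for each of the 86 genes, against recovered gene length (log axis); black lines are medians of other listed genes by length class. All but 1 of the members are below 1, with the lowest median under 600 bases, and the median of other genes rises from 0.696 under 600 bases to 1.07 above 4000.

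In eMZB, 0 members passed the test for LSD1 loss, against 0.406% of all listed genes called. By limma 2 members had an unadjusted p under 0.05 (2.33%, against 3.16% of listed genes). By voom 0 passed and 3 had one (3.49%, against 3.89% of listed genes). All of these were higher in eMZB_KO. TrB_KO replicate 3 enters here only through the pooled spread and the scaling factors. Without it, 28 members had an unadjusted p under 0.05 by limma and were higher in eMZB_KO, against 4.55% of listed genes, and 0 passed. Without both wild-type libraries of low Kdm1a 1 member had one, against 3.64% of listed genes. With all 3 doubted libraries left out, 16 had one in the higher direction (5.82% of listed genes) and 2 in the lower (4.47% of listed genes), and 0 passed. The median log2 change was 0.14, a 1.10-fold difference, against -0.00 over all listed genes, and 78 of 86 changes were above 0, against 48.8% of listed genes. The largest were those of Rpl38 (0.36, SE 0.18, adjusted p 0.964), Rps26 (0.35, SE 0.14, adjusted p 0.787) and Rpl32l (0.35). Rps26, at the exit of the messenger RNA on the small subunit, was at 126, 106 and 119 in eMZB_WT and 152, 138 and 159 in eMZB_KO, without overlap. Rpl38 was at 80.4, 85.1 and 81.2 against 113, 92.7 and 113. The lowest were Rps4l (-0.20), Rpl21 (-0.15) and Rps23rg1 (-0.10). No overlap was seen for 22 members higher in eMZB_KO (25.6%), against 9.13% of listed genes, and for 2 lower (2.33%, against 9.29% of listed genes). On deposited FPKM 0 members were without overlap in either direction, against 4.76% of listed genes higher and 1.56% lower.

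The difference between the eMZB and the TrB response to LSD1 loss was tested as an interaction. By limma 0 members passed and 4 had an unadjusted p under 0.05, and by voom 0 passed and 5 had one, all higher (6.45% of listed genes). Of all listed genes 0.0102% passed in the higher direction and 2.87% had an unadjusted p under 0.05 in it. The median of the differences was 0.21 with all libraries. It was 0.0044 without TrB_KO replicate 3, -0.04 without the 3 doubted libraries and -0.33 on deposited FPKM, where all genes had a median of -0.46.

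Copies and their parents were compared within libraries. Rpl22l1 encodes a paralog of RPL22, a large subunit protein known to be needed for T cell development, and was the copy with a level above its parent. Its ratio to Rpl22 was 2.38, 2.52 and 3.25 in TrB_WT, 3.45, 3.20 and 2.59 in TrB_KO, 2.68, 2.73 and 2.92 in eMZB_WT and 2.52, 3.10 and 2.79 in eMZB_KO. The 4 ranges overlapped. Between wild-type cells Rpl22 rose from 8.77 ± 0.48 to 12.5 ± 0.82 (log2 0.46, adjusted p 0.0150) and Rpl22l1 from 23.7 ± 2.8 to 34.6 ± 2.7 (log2 0.53, adjusted p 0.0417). The call for Rpl22l1 held in 4 of the 12 fits with 1 library left out and was lost with the replicate block and with voom.

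The other copies were below their parents. Rps27l, a p53-responsive paralog, was at 0.142 ± 0.017 of the level of Rps27 in TrB_WT and 0.148 ± 0.014 in eMZB_WT, and rose with it (log2 0.62, adjusted p 0.00984). Rpl36al was at 0.321 ± 0.053 of Rpl36a in TrB_WT and 0.233 ± 0.028 in eMZB_WT. Rpl36a rose by log2 0.81 (adjusted p 0.00636) and Rpl36al had a change of 0.35 that did not pass (adjusted p 0.0535). Rpl7l1, whose product takes part in ribosome assembly, was at 13.0 ± 0.23 in TrB_WT and 14.8 ± 0.50 in eMZB_WT (log2 0.18, adjusted p 0.221), while Rpl7 rose from 110 ± 9.2 to 163 ± 6.9 (log2 0.56, adjusted p 0.00867). The ratio of Rpl7l1 to Rpl7 was 0.118 ± 0.0084 and 0.0909 ± 0.0025. Whether copies changed by less than their parents was not tested.

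Rps4l, Rpl32l, Rpl37rt and Rps23rg1 were rare. Rps4l, a transcribed pseudogene related to Rps4x, was at 2.50 ± 0.59 in TrB_WT and 1.68 ± 0.66 in eMZB_WT, when Rps4x rose from 83.4 ± 5.3 to 125 ± 6.0 (log2 0.58, adjusted p 0.0137). Rpl32l was at 1.24 ± 0.39 and 1.54 ± 0.59. Rps23rg1 rose from 3.21 ± 0.12 to 5.67 ± 0.24 (log2 0.66, adjusted p 0.00479) and was at 0.040 ± 0.0031 and 0.043 ± 0.0047 of the level of Rps23. Rps19bp1, the binding protein, was at 5.20 ± 0.67 and 4.72 ± 0.50. Copies share sequence with their parents, so reads may have been split between them. Of the 4 listed pseudogenes left out by the rule, Rpl14-ps1 was at 5.95 to 7.14 in TrB_WT and 10.5 to 11.7 in eMZB_WT, and Rps15a-ps4 at 2.59 to 2.79 and 1.52 to 2.32.

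**Figure D5:**
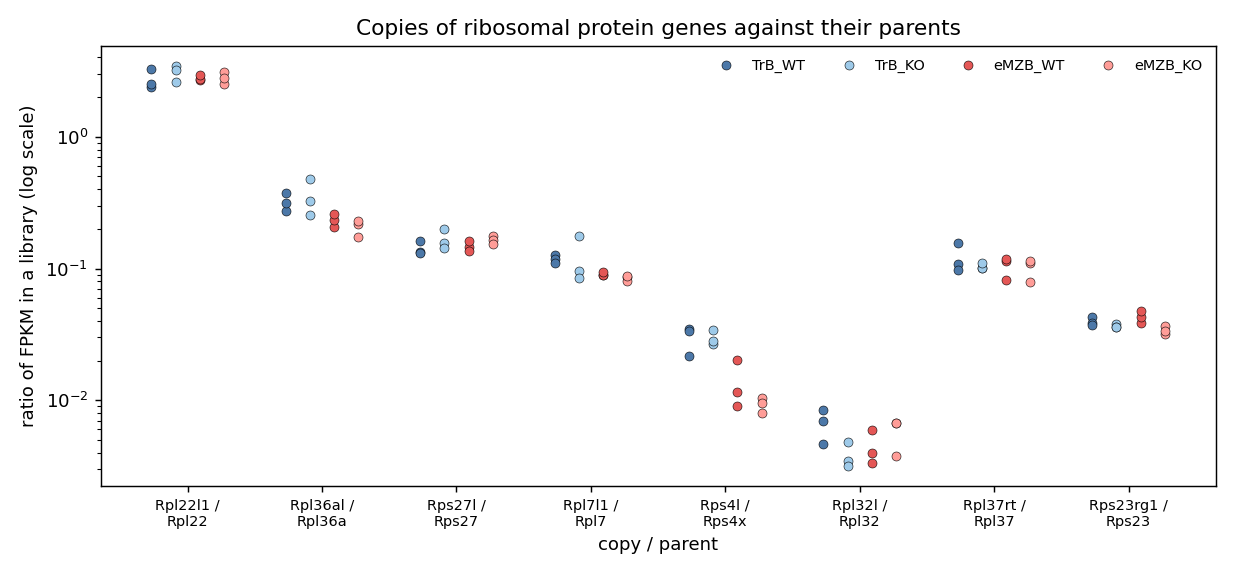
Ratio of each copy to its parent in every library (log axis), coloured by group, for 8 pairs. Rpl22l1 lies above Rpl22 in all 12 libraries and the other 7 copies lie below their parents, with Rpl36al and Rps4l lower against the parent in eMZB than in most TrB libraries.

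The balance of the subunits was followed by sums over their core genes. The 3 stalk genes were counted with the large subunit in these sums. The summed level of large subunit core genes was 1.25, 1.25 and 1.23 times that of small subunit genes in TrB_WT and 1.24, 1.25 and 1.29 times in TrB_KO. It was 1.31, 1.31 and 1.33 times in eMZB_WT and 1.34, 1.31 and 1.34 times in eMZB_KO. All eMZB libraries were above all TrB libraries, TrB_KO replicate 3 being the nearest. The typical gene did not follow this ratio of sums: the median log2 change was 0.58 in large and 0.59 in small subunit genes between wild-type cells, and 0.83 and 0.84 between knockout cells. These medians leave out the 3 stalk genes, whose own medians were 0.77 and 1.01.

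Genes of the wider translation apparatus were taken from 8 lists. Among ribosomal proteins that the naming rule does not reach, Rack1, a small subunit scaffold, rose from 47.3 ± 4.1 to 70.1 ± 4.0 between the wild-type cells, where 14.6% of all listed genes were called higher and 12.7% lower (log2 0.56, adjusted p 0.00537), and Fau had a log2 change of 0.23 (adjusted p 0.260). Of 15 elongation factor genes and other genes with known TOP messenger RNAs, 12 rose and 0 fell, with a median log2 change of 0.50. Eef1g, an elongation factor subunit, rose from 32.1 ± 4.2 to 61.7 ± 1.2 (log2 0.93), Npm1, a nucleolar chaperone, from 29.7 ± 2.5 to 59.5 ± 1.5 (log2 0.98), and Eef1b2 from 12.7 ± 1.1 to 22.6 ± 0.64 (log2 0.78). Hnrnpa1, Eif4b and Eif3h did not pass.

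Genes that act on ribosomes or build them filled the other 6 lists. Of 12 mTOR and S6 kinase genes, 2 rose and 2 fell, with a median of 0.04, shares near those of all listed genes. Eif4ebp1, an inhibitor of cap-dependent translation under mTOR control, rose from 9.22 ± 2.7 to 19.5 ± 2.9 (log2 1.03, adjusted p 0.00234) and Rheb, an activator of mTOR, from 8.79 ± 1.9 to 12.6 ± 0.24, while Rps6kb2, an S6 kinase, fell from 13.8 ± 1.2 to 9.31 ± 1.3 (log2 -0.53, adjusted p 0.00256) and Rptor from 2.41 ± 0.46 to 1.63 ± 0.15. Of 14 genes listed under large subunit assembly 5 rose, among them Fbl, which methylates ribosomal RNA (log2 0.65), Gnl3 (0.66) and Dkc1 (0.34). Fbl and Dkc1 act on ribosomal RNA and are not particular to the large subunit. Of 14 small subunit assembly genes 4 rose, led by Pno1 (log2 0.57). Of 6 escorts of ribosomal proteins 2 rose, Heatr3 and Nap1l1. Of the 8 genes listed as nascent chain and ribosome-associated factors 1 rose, Serbp1, again near the share of all listed genes. The 8 include Nacc1, which encodes a transcription regulator and not such a factor. It did not pass between the cell types in wild-type or knockout cells. Of 10 genes of RNA polymerase I and its factors, which make ribosomal RNA, 0 passed by limma. None of these lists held a gene that fell other than the mTOR list, and in both comparisons of LSD1 status 0 genes of the 8 lists passed. In knockout cells, between cell types, 13 of 15, 2 of 12, 5 of 14, 7 of 14, 1 of 6, 1 of 8 and 1 of 10 rose in the order in which the lists are given here, from the elongation factor list on, against 14.2% of all listed genes. In the mTOR list 3 fell (Rptor, Tsc1 and Rps6kb2), against 13.2% of all listed genes, and no gene of the others did.

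Listed genes that are no members were ranked by the correlation of their log2 levels with the mean of the core genes over the 12 libraries. Among the most alike were Rack1 (Pearson's r 0.992), Hspe1, a mitochondrial chaperonin (0.990), Mrpl12, a protein of the mitochondrial ribosome (0.986), and Uqcrq, a subunit of respiratory complex III (0.983). Rack1 was at 43.1, 47.4 and 51.4 in TrB_WT, 51.9, 47.7 and 35.1 in TrB_KO, 72.8, 71.8 and 65.5 in eMZB_WT and 79.2, 72.7 and 77.3 in eMZB_KO. It thus followed the class in the gap between cell types and in TrB_KO replicate 3. Core genes themselves had r from 0.916 (Rps25) to 0.998 (Rps9), 70 of 77 above 0.95, as did 40 of the other listed genes. These correlations describe 12 libraries that fall into 2 cell types.

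Members were spread over 19 chromosomes, with the largest number, 14, on chromosome 7. Introns of these genes often hold small nucleolar RNA genes, which guide the modification of ribosomal RNA. In the reference 30 members held 59 such genes within their bounds, of which 13 were listed.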

How the data were processed

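Each library came from 2000 sorted cells, with SMART-Seq v4 for cDNA and Nextera XT, which does not mark strand, per the labels' protocols. STAR and mm10 are named in the submitters' processing notes; no version, counter or annotation is given in the sources used here. Values were deposited by the authors as FPKM for 9842 genes in 12 libraries; 9833 IDs matched a symbol. Members and gene lists were chosen with earlier results of these data known.

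FPKM were divided by median-of-ratios factors per library (0.613 to 2.14). Log2 of scaled FPKM plus 1 entered limma (3.58.1, R 4.3.3; lmFit, eBayes with trend) with 4 group means over all 12 libraries and 8 residual degrees of freedom, Benjamini-Hochberg adjusted over all genes. A log2 change on this scale understates that of low genes. The fit was tested on simulated data. Other steps ran in Python 3.11.15 with pandas 2.3.3, numpy 2.4.6, matplotlib 3.10.9 and scipy 1.17.1.

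Whole reads were recovered for 9842 of 9842 genes within 0.02 reads, giving lengths (median 3043.5 bases) and depth; voom on these reads was an alternative. Read numbers bound counting error only. No 2 replicates were duplicates (chi-square per gene 2.57 to 18.6). Deviations of libraries with the same replicate number were correlated above 0.1 in every pair only between TrB_KO and eMZB_KO (0.161, 0.106 and 0.292). The main fit did not use the number, so its comparison of these 2 groups is unpaired. An alternative fit used the number as a block over all 4 groups. Named genes followed a rule: called members under LSD1 loss, the largest changes either way, stalk genes and Rpsa, paralogs with parents, the highest and lowest levels, members with known separate roles, and the leading genes of each list; others named were chosen after their values were seen. RefSeq supplied promoters and positions. Some results are not reported here.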

Additional observations from a re-analysis of the deposited data

How the results depend on the processing

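Between cell types the members' median log2 change was above 0 under every alternative run. On FPKM as deposited the median was 0.53 for TrB_KO against TrB_WT, 1.44 for eMZB_WT against TrB_WT, 1.14 for eMZB_KO against TrB_KO (28 called) and -0.33 for the interaction, since that scale moved the median of all genes to 0.52, 0.67, 0.23 and -0.46. Leaving out 1 library at a time gave medians of -0.19 to 0.13, 0.53 to 0.61, 0.63 to 0.94 and 0.0044 to 0.34 for these 4 comparisons. The ends at 0.13, 0.63 and 0.0044 were without TrB_KO replicate 3. Between wild-type cell types these fits kept 42 to 69 of the 69 calls, and 81 members were called in total without TrB_KO replicate 3. Leaving out the 3 doubted libraries, chosen after seeing the data, gave 0.15 with 1 member called in TrB, 0.63 for eMZB_KO against TrB_KO and -0.040 for the interaction; the cause was not tested. The replicate block left 68 members called between wild-type and 83 between knockout cell types, and 0 in both comparisons of LSD1 status. It ended the calls of Rpl22l1 and Rps4l and no other member's. In the other 3 pairs of groups, libraries with the same number had correlations of -0.0681 to 0.273. The labels do not say what libraries with the same number share. Members' mean shares of the recovered reads of listed genes were 1.82, 1.74, 2.87 and 3.17% in TrB_WT, TrB_KO, eMZB_WT and eMZB_KO. Of the summed FPKM over genes with a mean of at least 5 FPKM, they were 6.87% in TrB_WT, 10.2% in eMZB_WT and 11.3% in eMZB_KO. The values differ because the denominators differ. With TMM factors, factors computed without the members, the library sum, pseudocount 0.1, the filter at 5 FPKM, voom, or only the groups of a contrast, 63 to 77 members were called between wild-type and 81 to 84 between knockout cell types. No fit of the interaction was made on the groups of 1 contrast. The depth, with as few as 5 reads for the rarest member and library, limits Rpl32l and Rps4l most.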
